A study of Mus musculus with 2 samples.

Results

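The genes described here are 33 genes of mitochondrial fuel oxidation, of 31057 genes in the deposited matrices: 16 of the tricarboxylic acid (TCA) cycle and its entry through pyruvate dehydrogenase, and 17 of fatty acid β-oxidation. They were taken by symbol from a list of enzymes, chosen with earlier results of these data known, and all 33 symbols were found. The TCA cycle oxidizes acetyl-CoA in the mitochondrial matrix and passes the electrons to the respiratory chain. Acetyl-CoA comes from pyruvate through the pyruvate dehydrogenase complex, or from fatty acids that enter through the carnitine shuttle and are shortened by repeated rounds of dehydrogenation, hydration, dehydrogenation and thiolysis. Mammalian oocytes are known for taking up pyruvate that neighbouring granulosa cells supply, and β-oxidation is known to matter for their maturation.

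CD1 mice were sampled on postnatal day 2. Their whole ovaries were dissociated with collagenase type IV and Accumax and captured on the 10x Genomics Chromium system, which counts each captured transcript once by a unique molecular identifier (UMI). There were 2 libraries with no treatment or genotype to compare, each from 6 ovaries of 3 pups of 1 female, so n = 2 throughout and the cells within a library are not replicates. The study asked which cell types of the ovary express its long-lived proteins, and here the same question was put to the 33 genes. The labels name version 2 of the reagent kit and the methods version 3.

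Cells were assigned to 6 types by marker gates that hold none of the 33 genes: germ cells (Ddx4, Dazl and Ooep), granulosa cells, which surround the oocyte (Foxl2, Fst and Wnt6), interstitial cells (Col1a2 and Dcn), mesothelial cells of the ovarian surface (Upk3b), endothelial cells (Cdh5) and immune cells (Ptprc). Only cells that passed exactly 1 gate were kept, 3081 of 3636 filtered cells in replicate 1 and 3062 of 4371 in replicate 2. Germ cells numbered 223 and 554, granulosa cells 1655 and 599, and interstitial cells 1126 and 1845. The other types were thin, with 11 and 27 mesothelial, 59 and 26 endothelial and 7 and 11 immune cells, so that 22 and 7 of the 33 genes had under 10 UMIs in the mesothelial sums and 27 in each immune sum. The UMIs of all cells of a type in a library were added up, and levels are given in counts per 1000000 UMIs of that sum (CPM), a share of the transcripts and not an amount per cell. A single UMI amounted to 15.4 and 13.6 CPM in the immune sums. Per cell, the median depth was 77998 and 46039 UMIs in germ cells, 9880 and 9688 in granulosa cells and 6274.5 and 4641 in interstitial cells. Each type carried the most of its own check markers, which the gates did not use. For example, 5 germ cell markers summed to 4220 and 3568 CPM in germ cells. The mesothelial sums held 3148 and 1912 CPM of their own markers and also 561 and 685 of granulosa and 761 and 578 of interstitial markers. Erythroid transcripts reached 914 CPM in granulosa and 2244 in interstitial cells of replicate 2, against 140 and 29.6 in replicate 1. Their part in the results was not tested. The libraries shared 21 cell barcodes.

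The promoters below belong to Idh2, which set germ cells apart among the TCA genes, and to partner subunits whose levels kept different ratios in germ and somatic cells. They are RefSeq sequences of build GRCm38.p6, from 250 bases before to 50 after the annotated start, written 5′ to 3′ on the strand of the gene. In the first 3, capitals mark the CCAAT motif, in either orientation, and the motif of nuclear respiratory factor 1 (NRF1). No match overlapped another in the windows shown. Etfa (chr9:55512194-55512493, minus strand) and Etfb (chr7:43443822-43444121, plus strand) encode the partner subunits of electron transfer flavoprotein. Idh2 (chr7:80115301-80115600, minus strand) encodes the NADP-dependent isocitrate dehydrogenase of the matrix.
Etfa: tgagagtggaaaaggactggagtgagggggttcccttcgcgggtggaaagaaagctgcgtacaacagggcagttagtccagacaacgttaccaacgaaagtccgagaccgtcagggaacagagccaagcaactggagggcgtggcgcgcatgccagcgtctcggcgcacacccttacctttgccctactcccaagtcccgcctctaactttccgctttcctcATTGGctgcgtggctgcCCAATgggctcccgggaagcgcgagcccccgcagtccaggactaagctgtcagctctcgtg
Etfb: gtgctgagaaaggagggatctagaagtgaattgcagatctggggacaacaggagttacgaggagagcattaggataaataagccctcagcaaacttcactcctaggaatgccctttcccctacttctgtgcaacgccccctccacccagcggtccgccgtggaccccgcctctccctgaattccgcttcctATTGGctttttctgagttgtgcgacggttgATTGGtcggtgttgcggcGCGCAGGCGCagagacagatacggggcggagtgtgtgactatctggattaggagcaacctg
Idh2: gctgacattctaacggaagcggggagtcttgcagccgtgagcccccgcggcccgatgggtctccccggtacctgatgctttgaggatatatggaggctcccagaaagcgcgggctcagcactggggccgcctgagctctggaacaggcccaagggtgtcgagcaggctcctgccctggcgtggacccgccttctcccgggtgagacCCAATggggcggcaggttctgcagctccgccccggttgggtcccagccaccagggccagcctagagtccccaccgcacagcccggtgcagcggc
Hadha and Hadhb encode the α and β subunits of the mitochondrial trifunctional protein. They are neighbours read in opposite directions, with RefSeq starts 273 bases apart. The GENCODE annotation puts the starts closer together, at 30155162 for Hadha and 30155248 for Hadhb. Their windows overlap, and capitals in the Hadhb window (chr5:30155003-30155302, plus strand) mark the 228 bases that are also in the Hadha window.
Hadhb: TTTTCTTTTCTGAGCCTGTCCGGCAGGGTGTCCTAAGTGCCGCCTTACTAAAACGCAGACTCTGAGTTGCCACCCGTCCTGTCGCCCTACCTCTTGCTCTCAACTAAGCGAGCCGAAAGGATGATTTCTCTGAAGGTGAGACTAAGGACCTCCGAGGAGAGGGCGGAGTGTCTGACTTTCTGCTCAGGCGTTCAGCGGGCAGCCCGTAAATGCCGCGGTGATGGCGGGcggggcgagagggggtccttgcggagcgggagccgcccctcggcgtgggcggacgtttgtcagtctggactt

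Counted from the annotated start at 0, the CCAAT matches of Etfa lie at -28 to -24 and -11 to -7. Those of Etfb lie at -59 to -55 and -29 to -25, followed by an NRF1 match at -11 to -2. The match of Idh2 lies at -44 to -40. Of the 33 genes, 30 had an entry in the promoter table (all but Acaa2, Acat1 and Idh3a). The NRF1 motif was in 4 of these 30 promoters (13.3%) against 5.19% of 27025 genes. CCGGAAG, a motif of ETS factors, was in 5 (16.7%) against 9.93%. AAGGTCA, a motif of estrogen-related receptors, was in 2 (6.67%) against 5.38%. CCAAT itself was in 13 (43.3%) against 41.1%, and all motifs were searched on both strands. These are counts of letters in a window, and binding was not measured.

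Levels below are those of the pooled cells of 1 type in 1 library, in CPM as above, replicate 1 first and replicate 2 second. The 16 TCA genes together took up 2198 and 2252 CPM in germ cells (2225 ± 38.3, mean ± SD, n = 2). The same genes took up 1603 and 1469 in granulosa, 1781 and 1695 in interstitial, 1626 and 1613 in mesothelial, 1510.0 and 1815 in endothelial and 1429.6 and 1615 in immune cells. Both germ cell sums lay above every other sum, and the somatic sums ran from 1429.6 to 1815. The 17 oxidation genes did not follow this order: they took up 1528 and 1629 CPM in germ cells, 1732 and 1856 in granulosa cells, 1490.3 and 1544 in interstitial cells and 1874 and 2232 in mesothelial cells. Endothelial (1144 and 1095) and immune cells (1091 and 1262) lay below those 4 types in both libraries. Acaa2, 1 of the 17, stood at 3.56 and 7.26 in germ cells and 259 and 441 in granulosa cells. It alone differed by more than the oxidation sums of these types did in either library. No test was made of a sum.

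**Figure D1:**
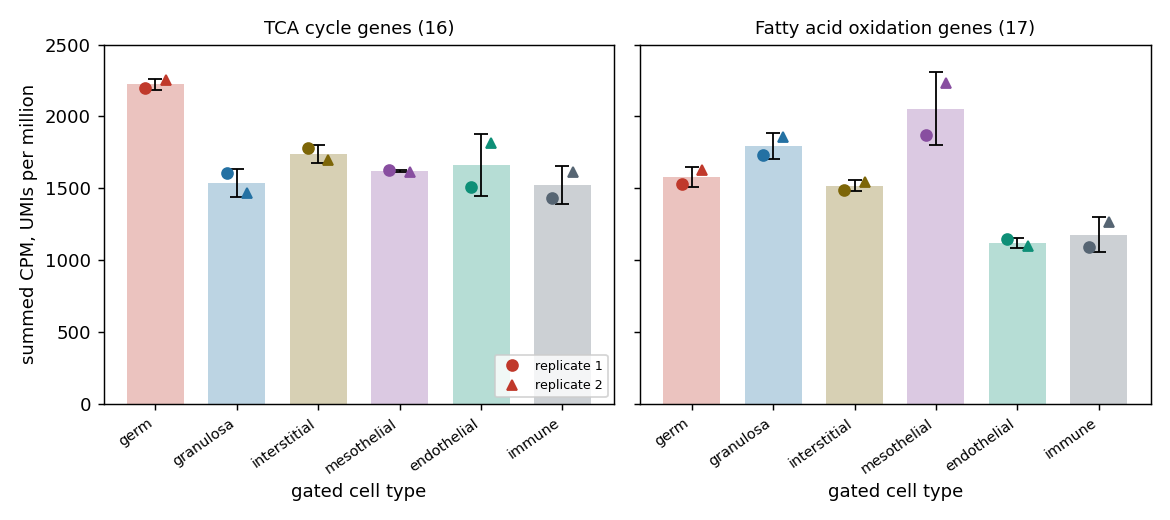
Summed CPM of the 16 TCA cycle genes (left) and the 17 fatty acid oxidation genes (right) in the 6 gated cell types. Points are the 2 libraries, bars their mean and error bars the SD. The TCA sums of germ cells, 2198 and 2252, stand above those of the other types, whereas the oxidation sums of germ cells lie between those of interstitial and granulosa cells or overlap them. The oxidation sums include Acaa2, at 3.56 and 7.26 in germ and 259 and 441 in granulosa cells.

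As a ratio, oxidation transcripts amounted to 0.695 and 0.723 of TCA transcripts in germ cells and to 0.837 and 0.911 in interstitial cells. In granulosa cells the ratio was 1.08 and 1.26, and in mesothelial cells 1.15 and 1.38. Granulosa and mesothelial cells thus held more transcripts of the oxidation genes than of the TCA genes in both libraries, and the other types held fewer. In granulosa cells Acaa2 alone, at 259 and 441 CPM, exceeded the gap between the oxidation and TCA sums in both libraries. In mesothelial cells it did so in replicate 1 (428) and not in replicate 2 (522). Among the groups of TCA enzymes, the last steps had the widest gap between germ cells and the abundant somatic types. Fumarase and malate dehydrogenase together reached 724 and 742 CPM in germ cells against 340.5 and 308 in granulosa and 337 and 301 in interstitial cells. The 3 succinyl-CoA ligase genes reached 429.7 and 444 in germ cells against 250.0 and 248 and 242 and 249.8. Within β-oxidation, the 7 genes from hydration to thiolysis reached 783 and 779 in germ cells, below granulosa (988 and 1175), interstitial (904 and 930.4) and mesothelial cells (1227 and 1441) and above endothelial (648 and 539) and immune cells (399.7 and 597). Acaa2 is among the 7, at 3.56 and 7.26 in germ, 259 and 441 in granulosa and 243 and 268 in interstitial cells. Its gaps between germ cells and these abundant somatic types were wider than those of the sums, so the order below them rests on this gene.

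**Figure D2:**
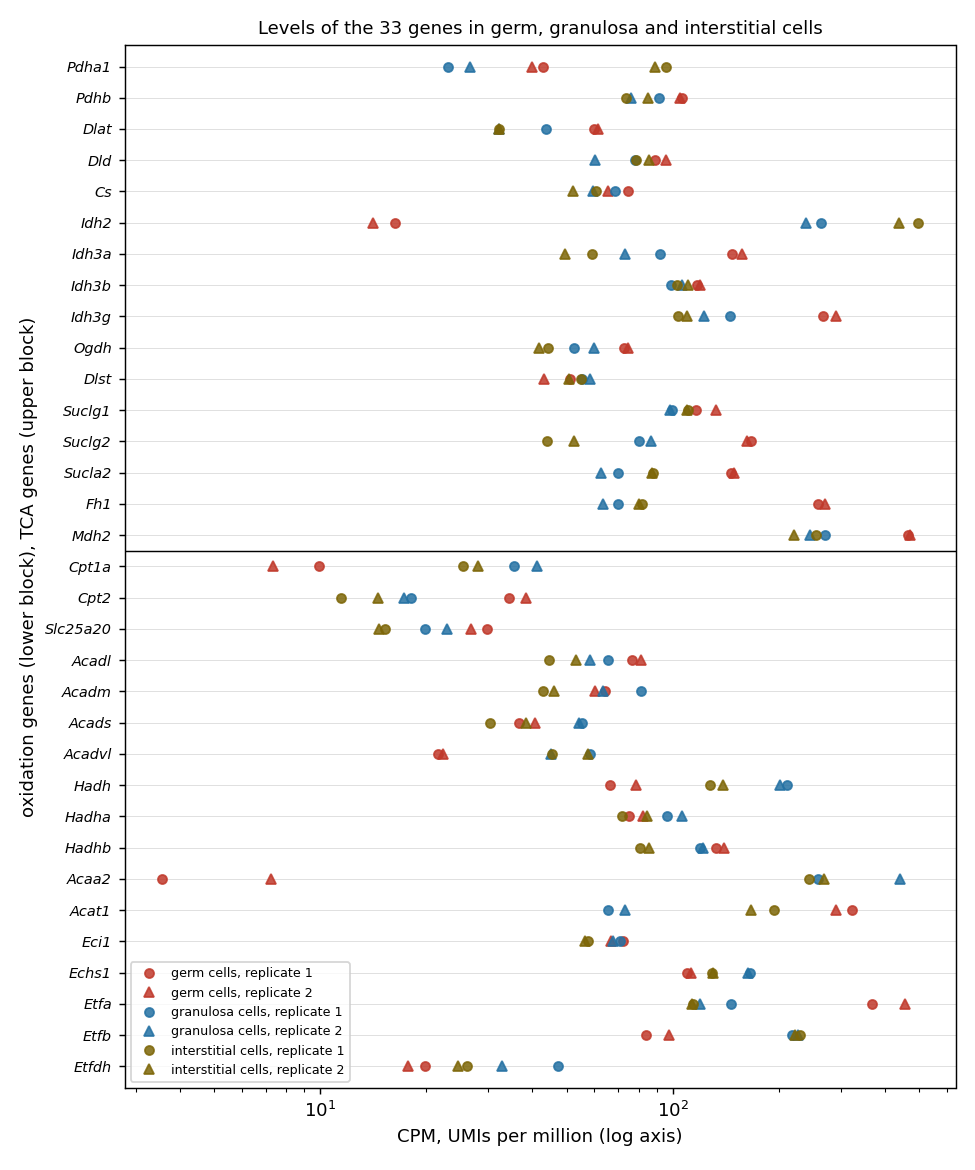
CPM (log axis) of each of the 33 genes in germ, granulosa and interstitial cells, 1 point per library. Most genes lie within a few-fold of each other across these types, whereas Idh2 and Acaa2 in germ cells stand far to the left of the somatic values and Fh1, Etfa and Acat1 in germ cells to the right.

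Germ cells were first compared with the mean of the other 5 cell types, by edgeR's quasi-likelihood test over 8804 genes, with p-values adjusted over all of them and a call at an adjusted p under 0.05. All 33 genes passed the filter on low counts. In germ cells 14 of the 33 genes were higher, beside 37.5% of all genes tested, 6 were lower, beside 25.2% of all genes, and 13 were not called. The shares of the 33 genes were thus near those of all genes, and the median log2 difference was 0.35 against 0.14 over all genes. The 2 pathways differed in count: among TCA genes 9 were higher and 1 was lower, with a median of 0.44, and among oxidation genes 5 were higher and 5 were lower, with a median of -0.15. Every type entered with equal weight, so the thin mesothelial and immune sums are part of this reference.

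**Figure D3:**
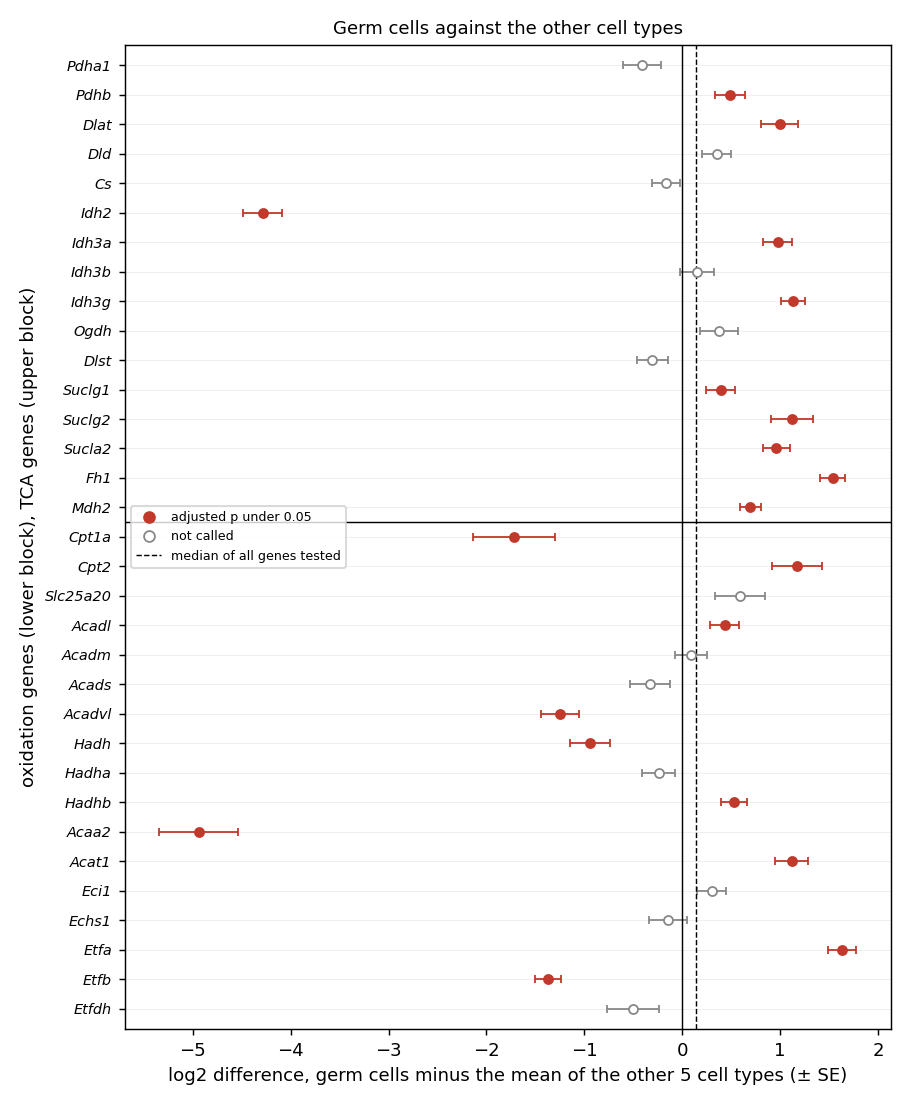
Log2 difference between germ cells and the mean of the other 5 cell types for each of the 33 genes, with its standard error, from edgeR. Filled points have an adjusted p under 0.05, and the dashed line is the median of all genes tested (0.14). Idh2 is the TCA gene far below the line, and Acaa2, Cpt1a, Etfb, Acadvl and Hadh are the oxidation genes with filled points below it.

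At the entry to the cycle, the pyruvate dehydrogenase complex had Dlat and Pdhb higher in germ cells. Dlat, the acetyltransferase core, stood at 59.6 and 61.3 CPM in germ cells, 43.7 and 32.1 in granulosa and 32.1 and 32.1 in interstitial cells, and was higher in germ cells by 1.00 ± 0.19, adjusted p = 2.78e-04 (log2 difference ± SE). Both germ values exceeded those of granulosa and interstitial cells, though the mesothelial value of replicate 2, 60.9, lay between them. Pdhb, the β subunit of the decarboxylating enzyme, stood at 106 and 105 in germ cells, above every other sum, and was higher by 0.49 ± 0.15, adjusted p = 0.0117. Its partner Pdha1, the X-linked α subunit, was not called in germ cells (-0.41 ± 0.19, adjusted p = 0.0775). Dld, the lipoamide dehydrogenase that several complexes share, was not called either (0.35 ± 0.15, adjusted p = 0.0571), with 89.1 and 95.7 in germ cells and 46.1 to 85.4 elsewhere.

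Isocitrate oxidation gave the widest contrast among the TCA genes. Idh2 was at 16.3 and 14.2 CPM in germ cells, 264 and 239 in granulosa, 496 and 438 in interstitial, 228 and 167 in mesothelial, 289 and 368 in endothelial and 169 and 285 in immune cells. The germ values were the lowest of the 12 sums by a wide margin, and Idh2 was lower in germ cells, with a log2 difference of -4.28 ± 0.20, adjusted p = 1.59e-10. The germ cell sums still held 265 and 312 Idh2 UMIs. The 5 check markers of interstitial cells, where Idh2 was most abundant, summed to 14.9 and 27.0 CPM in germ cells against 6148 and 5151 in interstitial cells, and the part of RNA from other cells in the germ value was not tested.

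The NAD-dependent isocitrate dehydrogenase, which serves the cycle itself, lay the other way. Idh3g, a regulatory subunit, was at 267 and 291 in germ cells and at most 169 elsewhere, and was higher by 1.13 ± 0.12, adjusted p = 1.08e-06. Idh3a, the catalytic subunit, was at 148 and 157 in germ cells and at most 123 elsewhere, and was higher by 0.97 ± 0.15, adjusted p = 4.29e-05. Idh3b, the other regulatory subunit, was not called, with 117 and 119 in germ cells against 99.2 and 106 in granulosa cells (0.15 ± 0.18, adjusted p = 0.522). Set as a ratio of UMI levels, Idh2 amounted to 0.0306 and 0.0250 of the 3 Idh3 genes together in germ cells, 0.783 and 0.790 in granulosa cells and 1.87 and 1.62 in interstitial cells. Cs, citrate synthase, was not called in germ cells (-0.16 ± 0.14, adjusted p = 0.349) and ranged from 52.0 to 138 over the 12 sums.

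From oxoglutarate onwards, Ogdh and Dlst, the first and second components of oxoglutarate dehydrogenase, were not called in germ cells (0.37 and -0.31, adjusted p = 0.109 and 0.114). All 3 succinyl-CoA ligase genes were higher. Suclg2, the GTP-forming β subunit, stood at 167 and 163 in germ cells, 80.2 and 86.7 in granulosa and 44.1 and 52.6 in interstitial cells (1.12 ± 0.22, adjusted p = 3.29e-04). Sucla2, the ATP-forming β subunit, stood at 147 and 149 in germ cells and at most 88.0 elsewhere (0.96 ± 0.14, adjusted p = 2.11e-05). Suclg1, the α subunit that both forms need, differed by less, 0.39 ± 0.14, adjusted p = 0.0269, and lost its call without germ replicate 2 (log2 difference 0.38).

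The 2 last enzymes of the cycle were both higher in germ cells. Fh1, fumarase, was at 259 and 271 in germ cells, 69.8 and 63.5 in granulosa, 81.8 and 80.2 in interstitial and 60.9 to 154 in the thin types. Germ values lay above all others, and the log2 difference of 1.54 ± 0.13, adjusted p = 6.16e-08 was the largest among the TCA genes that were higher. Mdh2, mitochondrial malate dehydrogenase, was at 465 and 470.4 in germ cells and 221 to 340 elsewhere, higher by 0.70 ± 0.11, adjusted p = 5.76e-05.

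Among the oxidation genes, the carnitine shuttle split between its 2 transferases. Cpt1a, which makes acylcarnitine at the outer membrane and is the regulated step, was at 9.95 and 7.35 CPM in germ cells, 35.5 and 41.1 in granulosa and 25.4 and 28.0 in interstitial cells, and was lower in germ cells, with a log2 difference of -1.72 ± 0.42, adjusted p = 0.00204. With every cell thinned to 2000 UMIs the difference from the mean of the other 5 types was 0.12 and not called. One immune sum held no Cpt1a UMI. Against granulosa cells alone the log2 difference was -2.25 ± 0.25, adjusted p = 1.04e-06. Cpt2, which returns the acyl group to coenzyme A inside, was at 34.4 and 38.4 in germ cells, 18.0 and 17.3 in granulosa and 11.5 and 14.6 in interstitial cells, and was higher by 1.17 ± 0.26, adjusted p = 9.22e-04. The filter on low counts asked for 23.1 CPM in 2 sums. Outside germ cells, Cpt2 reached it only in replicate 2 of mesothelial (5 UMIs) and immune cells (2 UMIs). Whether Cpt2 would have been tested without the germ sums was not examined. Slc25a20, the translocase between Cpt1a and Cpt2, was not called (0.59 ± 0.26, adjusted p = 0.0553).

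The acyl-CoA dehydrogenases, which start each round and differ in the chain length they take, were called singly. Acadvl, for very long chains, was at 21.6 and 22.3 in germ cells, 58.3 and 45.3 in granulosa and 45.5 and 57.5 in interstitial cells. Germ values were below all others, and Acadvl was lower in germ cells, with a log2 difference of -1.25 ± 0.19, adjusted p = 4.38e-05. Acadl, for long chains, was at 76.8 and 81.2 in germ cells and higher by 0.43 ± 0.15, adjusted p = 0.0202, a call lost without germ replicate 2 (log2 difference 0.48), and the endothelial value of replicate 2, 87.2, exceeded both germ values. Acadm and Acads, for medium and short chains, were not called (0.09 and -0.33, adjusted p = 0.766 and 0.177).

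The thiolases, which release acetyl-CoA, stood at opposite ends in germ cells. Acaa2, the mitochondrial 3-ketoacyl-CoA thiolase, was at 3.56 and 7.26 CPM in germ cells, 259 and 441 in granulosa, 243 and 268 in interstitial, 428 and 522 in mesothelial, 36.1 and 48.4 in endothelial and 61.5 and 54.3 in immune cells. Germ sums held 58 and 160 Acaa2 UMIs, the log2 difference was -4.94 ± 0.40, adjusted p = 5.34e-08, and no germ value overlapped another type. Acat1, which cleaves acetoacetyl-CoA and also serves ketone body and isoleucine breakdown, was at 323 and 291 in germ cells, 65.7 and 73.4 in granulosa and 194 and 166 in interstitial cells. It was higher in germ cells by 1.12 ± 0.17, adjusted p = 3.62e-05, above every other sum. What RNA from other cells adds to the germ value of Acaa2 was not tested.

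Between hydration and thiolysis, Hadh, the 3-hydroxyacyl-CoA dehydrogenase for shorter chains, was at 66.4 and 78.6 in germ cells, 210.4 and 201 in granulosa and 128 and 139 in interstitial cells, and was lower in germ cells, with a log2 difference of -0.94 ± 0.21, adjusted p = 9.12e-04. Hadhb, the thiolase subunit of the trifunctional protein, was at 133 and 140.0 in germ cells, 119 and 122 in granulosa and 80.6 and 85.9 in interstitial cells, and was higher by 0.53 ± 0.13, adjusted p = 0.00240. Hadha, the hydratase and dehydrogenase subunit read in the other direction, was at 75.1 and 82.3 in germ cells and not called (-0.24 ± 0.17, adjusted p = 0.243). The ratio of Hadhb to Hadha levels was 1.77 and 1.70 in germ cells, 1.24 and 1.14 in granulosa and 1.13 and 1.02 in interstitial cells, so the ratios of these 3 types did not overlap between germ cells and the others. Echs1, the short-chain enoyl-CoA hydratase, and Eci1, which moves double bonds of unsaturated chains into place, were not called (-0.15 and 0.30, adjusted p = 0.574 and 0.0907).

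Electron transfer flavoprotein collects electrons from all acyl-CoA dehydrogenases as a dimer of the Etfa and Etfb products, and these genes moved in opposite directions. Etfa was at 368 and 457 CPM in germ cells, 146 and 119.5 in granulosa, 114 and 114 in interstitial and 75.4 to 178 in the thin types. Etfb was at 83.8 and 97.9 in germ cells, 218 and 227 in granulosa, 230.3 and 223 in interstitial and 148 to 277 in the thin types. In germ cells Etfa was higher by 1.63 ± 0.14, adjusted p = 9.93e-08, and Etfb was lower, with a log2 difference of -1.37 ± 0.13, adjusted p = 3.94e-07, and neither overlapped another type. The ratio of Etfa to Etfb levels was 4.39 and 4.67 in germ cells and between 0.400 and 0.745 in the 10 somatic sums. A ratio of UMI levels between genes depends on how well each 3′ end is captured, so its size is not a ratio of molecules. Etfdh, the oxidoreductase that passes the electrons to ubiquinone, was not called against the mean of the other types (-0.50 ± 0.27, adjusted p = 0.119).

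**Figure D4:**
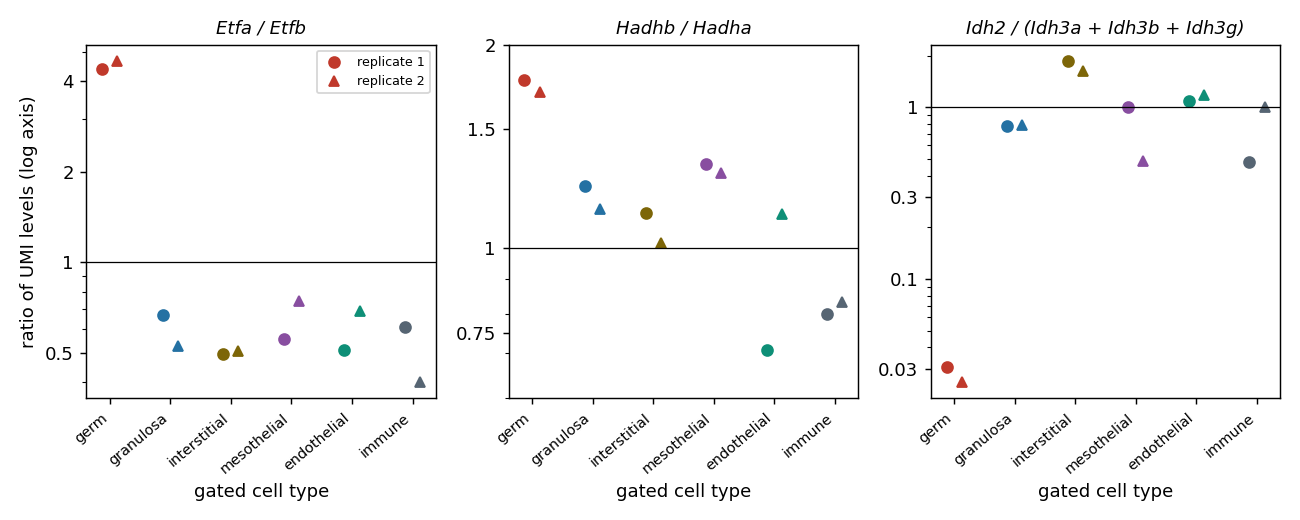
Ratios of UMI levels (log axes) of Etfa to Etfb, Hadhb to Hadha and Idh2 to the sum of Idh3a, Idh3b and Idh3g in the 6 cell types, 1 point per library. Germ cells stand apart in all 3 panels: at 4.39 and 4.67 for Etfa to Etfb, at 1.77 and 1.70 for Hadhb to Hadha and at 0.0306 and 0.0250 for the Idh2 ratio.

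Germ cells were also set directly against each of the 2 abundant somatic types, comparisons that leave out the thin sums and share the same germ cell sums. Against granulosa cells 11 of the 33 genes were higher in germ cells, beside 36.3% of all genes, and 11 were lower, beside 41% of all genes. TCA genes made up 8 of the 11 higher and oxidation genes 9 of the 11 lower. Without germ replicate 1, Dlst, Hadha, Acads and Echs1 were no longer called lower (-0.41, -0.32, -0.45 and -0.56). Lower calls over all genes became fewer there as well. Dlst lost its call without any 1 of the 4 sums, and Dlat among the higher lost it without granulosa replicate 2 (0.39). Against interstitial cells 15 were higher, beside 38.1% of all genes, and 8 were lower, beside 39.5% of all genes, with 8 TCA and 7 oxidation genes among the higher and 2 TCA and 6 oxidation genes among the lower. Etfdh among the lower lost its call without any 1 of the 4 sums (-0.58 to -0.36). Among the higher, Acadm lost it without germ replicate 1 (0.43) and without either interstitial sum (0.29 and 0.43), Acadl without interstitial replicate 1 (0.42) and Acat1 without interstitial replicate 2 (0.56).

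Several genes were called in the same direction in both direct comparisons. Fh1 was higher in germ cells by 1.89 ± 0.16 against granulosa and 1.62 ± 0.16 against interstitial cells, and Etfa by 1.53 ± 0.18 and 1.77 ± 0.18. Acaa2 was lower, with log2 differences of -6.10 ± 0.34 and -5.63 ± 0.33, as was Idh2, with -4.15 ± 0.21 and -5.03 ± 0.22. Pdha1 was the gene called in both with opposite signs: its germ level of 42.8 and 39.8 was higher than the granulosa level (0.64 ± 0.19, adjusted p = 0.00716) and lower than the interstitial level (-1.25 ± 0.19, adjusted p = 2.22e-05). The call against granulosa cells was lost without granulosa replicate 1 (log2 difference 0.51).

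In granulosa cells, set against the mean of the other 5 types, 9 of the 33 genes were higher, beside 25.7% of all genes, 3 were lower, beside 8.86% of all genes, and 21 were not called. The median log2 difference was 0.14 against 0.25 over all genes. Oxidation genes made up 8 of the 9 higher. Acaa2 stood at 349.5 ± 129 CPM (mean ± SD, n = 2) and was higher by 2.38 ± 0.21, adjusted p = 6.18e-07. Cpt1a (0.99 ± 0.26, adjusted p = 0.00869), Hadh (0.99 ± 0.18, adjusted p = 6.41e-04), Etfdh (0.94 ± 0.22, adjusted p = 0.00350), Echs1 (0.65 ± 0.18, adjusted p = 0.0112), Acadm (0.47 ± 0.16, adjusted p = 0.0326), Hadhb (0.44 ± 0.13, adjusted p = 0.0185) and Eci1 (0.42 ± 0.15, adjusted p = 0.0372) were the other oxidation genes that were higher. They span the shuttle, the rounds of oxidation and the final transfer of electrons, and the share of higher calls was near that of all genes. Of the 8, Hadh was the gene whose granulosa values both lay above every other sum. The germ values of Acaa2 (3.56 and 7.26), Cpt1a (9.95 and 7.35) and Hadh (66.4 and 78.6) are part of the reference. The call of Eci1 was lost without either granulosa sum (log2 difference 0.42 and 0.43) and with the library as a block (adjusted p = 0.0510). Those of Acadm (0.32) and Etfdh (0.69) were lost without granulosa replicate 1, and that of Hadhb (0.40) without granulosa replicate 2.

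Idh2 was the single TCA gene that was higher in granulosa cells (0.69 ± 0.14, adjusted p = 0.00162). Its granulosa values, 264 and 239 CPM, lay below those of interstitial (496 and 438) and endothelial cells (289 and 368). The low germ values, 16.3 and 14.2, are part of the reference. Fh1 (-0.73 ± 0.15, adjusted p = 0.00125), Pdha1 (-1.18 ± 0.21, adjusted p = 4.14e-04) and Acat1 (-1.33 ± 0.20, adjusted p = 9.85e-05) were lower in granulosa cells. Pdha1 was at 23.0 and 26.7 CPM in granulosa cells while its partner Pdhb was at 91.2 and 75.9. The ratio of Pdhb to Pdha1 levels was 3.97 and 2.85 in granulosa cells, 2.48 and 2.63 in germ cells and 0.767 and 0.955 in interstitial cells.

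In interstitial cells 3 of the 33 genes were higher, beside 23.9% of all genes, and 7 were lower, beside 9.71% of all genes, against the mean of the other 5 types. Acaa2 (1.82 ± 0.22, adjusted p = 1.27e-05), Idh2 (1.75 ± 0.14, adjusted p = 1.10e-07) and Pdha1 (1.09 ± 0.17, adjusted p = 1.68e-04) were the higher ones. Idh2 reached 467 ± 40.8 CPM here (mean ± SD, n = 2), above every other sum, and Pdha1 reached 92.3 ± 4.92, above all sums but that of immune replicate 2 (109). The low germ values of Acaa2 and Idh2 are part of the reference. All of the lower ones but Cs were called higher in germ cells, which are part of this reference. Only Suclg2 and Idh3a among them were also called lower against granulosa cells alone. The lower ones were mostly TCA genes: Suclg2 (-0.89), Idh3a (-0.71), Cs (-0.44), Idh3g (-0.42), Fh1 (-0.41) and Mdh2 (-0.37), with Etfa (-0.49) from oxidation, at adjusted p-values of 0.00469 to 0.0402. Most of these lower calls were lost when either interstitial sum was left out, so that a single sum stood for the type. Idh3a kept its call without replicate 1 (-0.80) and Suclg2 without replicate 2 (-1.03). Lower calls over all genes became fewer in both settings as well. Acaa2, Idh2 and Pdha1 stayed higher in both.

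Set directly against interstitial cells, granulosa cells had 7 of the 33 genes higher, beside 23.1% of all genes, and 3 lower, beside 19.8% of all genes. Suclg2 (0.80 ± 0.25, adjusted p = 0.0183), Acadm (0.71 ± 0.17, adjusted p = 0.00282) and Acads (0.68 ± 0.19, adjusted p = 0.00846) had the largest differences among the higher with Etfdh (0.68 ± 0.20, adjusted p = 0.0121), followed by Hadh, Idh3a and Hadhb (0.64, 0.62 and 0.55). Pdha1 (-1.89 ± 0.20, adjusted p = 1.94e-06), Acat1 (-1.36 ± 0.22, adjusted p = 1.30e-04) and Idh2 (-0.88 ± 0.18, adjusted p = 0.00118) were lower, and each stayed lower when any single granulosa or interstitial sum was left out. Among the 7 higher, Acadm was the gene that kept its call whichever sum was left out. The higher count fell without either interstitial sum and rose without granulosa replicate 1, whereas over all genes it fell in each of these settings. Acaa2 was not called between these types (0.47 ± 0.27, adjusted p = 0.171): its granulosa levels of 259 and 441 and interstitial levels of 243 and 268 overlapped.

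In mesothelial cells 2 of the 33 genes were higher, beside 8.56% of all genes, and 0 were lower, beside 1.41% of all genes, by edgeR over 11 and 27 cells, and 7 of the 33 had an unadjusted p under 0.05. DESeq2 called 3 higher and 0 lower, beside 1032 higher and 75 lower over all 8804 genes. Acaa2 was at 428 and 522 CPM (2.84 ± 0.28, adjusted p = 7.28e-06) and Echs1 at 342 and 218 (1.43 ± 0.24, adjusted p = 9.11e-04). Both mesothelial values of Echs1 lay above every other sum, whereas the granulosa value of Acaa2 in replicate 2, 441, exceeded the mesothelial value of replicate 1. The gates set aside 125 and 167 cells that passed the Upk3b and granulosa gates and no other. With these counted as mesothelial, in a gate chosen after the data were seen, the sums held 136 and 194 cells. Median depth was 14901 and 12016.5 UMIs per cell in them, against 9326 and 7035 in the narrower sums. Whether the added cells include doublets that passed the filter was not tested. With the wider gate 11 of the 33 genes were higher, beside 23% of all genes, and 3 were lower, beside 11.1% of all genes. In these wider sums Acaa2 was at 347 and 395 (2.59 ± 0.22, adjusted p = 1.23e-06) and Echs1 at 225 and 209.8 (1.23 ± 0.14, adjusted p = 1.73e-05). Hadhb (0.69 ± 0.13, adjusted p = 9.31e-04), Hadha (0.59 ± 0.15, adjusted p = 0.00830) and Eci1 (0.52 ± 0.14, adjusted p = 0.00981) were next by adjusted p among the higher. Fh1 (-0.85 ± 0.13, adjusted p = 2.31e-04), Acadl (-0.60 ± 0.16, adjusted p = 0.0125) and Acat1 (-0.54 ± 0.18, adjusted p = 0.0321) were lower.

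In endothelial cells 1 of the 33 genes was higher, beside 15.7% of all genes, and 4 were lower, beside 6.92% of all genes. The endothelial sums also held 221 and 336 CPM of 4 perivascular markers, against at most 62.2 in the other types, and the part of these in the endothelial results was not tested. Idh2, at 289 and 368 CPM, was the higher one (1.08 ± 0.16, adjusted p = 9.75e-05). Its interstitial values, 496 and 438, were higher still, and the low germ values, 16.3 and 14.2, are part of the reference. Acaa2 (-1.41 ± 0.36, adjusted p = 0.00958), Etfa (-0.91 ± 0.20, adjusted p = 0.00324), Hadhb (-0.79 ± 0.18, adjusted p = 0.00509) and Idh3a (-0.64 ± 0.22, adjusted p = 0.0495) were lower. None of the lower calls held without endothelial replicate 1, which left 26 cells, and that of Idh3a was also lost without replicate 2. Lower calls over all genes became fewer in both settings as well. In immune cells 1 gene was higher, beside 9.35% of all genes, and 1 was lower, beside 3.03% of all genes: Etfb (0.73 ± 0.21, adjusted p = 0.0369) and Echs1 (-1.91 ± 0.49, adjusted p = 0.0160). The immune call of Etfb was lost without either immune sum (0.77 and 0.68) and that of Echs1, with 4 and 1 UMIs, without immune replicate 2 (-1.20).

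Growing oocytes make the zona pellucida protein Zp3, so germ cells were split at 3 Zp3 UMIs per 10000 UMIs into 187 and 343 Zp3-high and 36 and 211 Zp3-low cells. The median depth was 81734 and 57290 UMIs per cell in Zp3-high and 52926 and 37928 in Zp3-low cells. Of the 33 genes, 32 were tested (Acaa2 was too low) and by edgeR 0 were called higher, beside 4.39% of all genes, and 0 lower, beside 1.04% of all genes, with 11 at an unadjusted p under 0.05. DESeq2 called 0 higher and 2 lower, beside 418 higher and 176 lower over all genes. Without Zp3-low replicate 2, a single sum stood for that class, and edgeR gained calls among these genes and over all genes alike. The classes of 1 library share their pups, and deviations of a library from the class means correlated at r = 0.642 across 8204 genes. With the library as a block, 6 of the 32 genes were higher, beside 20.4% of all genes, and 6 were lower, beside 13.9% of all genes, which are shares near those of all genes.

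The blocked fit has few sums left over once classes and libraries are fitted. Its standard errors and p-values thus rest largely on the spread shared across genes, and the Zp3-low sum of replicate 1 held 36 cells. Under that block the 3 genes that fell furthest in Zp3-high cells were Acat1, Acadm and Pdhb. Acat1 stood at 300.3 and 253 CPM in Zp3-high cells and 504 and 377 in Zp3-low cells (-0.59 ± 0.07, adjusted p = 2.69e-05, edgeR with the library block). Pdhb stood at 99.6 and 91.9 against 158 and 133 (-0.52 ± 0.08, adjusted p = 4.02e-04) and Acadm at 61.8 and 49.9 against 82.9 and 83.0 (-0.54 ± 0.10, adjusted p = 0.00148). In each of these 3 genes, which were picked by their fall in these same sums, every Zp3-high value was below every Zp3-low value. Suclg2, Idh3a and Etfa were also lower in Zp3-high cells under the block (-0.38, -0.33 and -0.24). Etfb, the partner of Etfa, was higher, at 87.0 and 105 against 58.4 and 81.2 (0.51 ± 0.10, adjusted p = 0.00127). Etfdh, Dlst, Eci1, Idh3g and Fh1 were the other genes that were higher under the block (0.52, 0.46, 0.39, 0.31 and 0.24). Idh2 was not called, at 16.1 and 14.4 in Zp3-high and 17.5 and 13.5 in Zp3-low cells.

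Of 82 other genes of the same pathways, 50 passed the filter, and in germ cells 16 of them were higher, beside 37.5% of all genes, and 16 were lower, beside 25.2% of all genes. Succinate dehydrogenase, the TCA enzyme that is also respiratory complex II, had Sdhb at 421 and 437 CPM in germ cells against 173 and 168 in granulosa cells (0.91 ± 0.14, adjusted p = 2.98e-05) and Sdhc higher as well (0.62 ± 0.14, adjusted p = 0.00120). Sdha, another subunit, went the other way against granulosa cells alone and was lower in germ cells (-0.44 ± 0.18, adjusted p = 0.0403, edgeR). Of the genes that control pyruvate entry, 3 of 5 tested were higher, beside the same 37.5% of all genes. Pdk3, a kinase that switches pyruvate dehydrogenase off, was at 177 and 181 in germ cells against 31.2 and 34.5 and 47.0 and 46.8 in granulosa and interstitial cells (2.27 ± 0.20, adjusted p = 1.45e-07). Pdk1, a kinase of the same family, was at 53.2 and 52.3 against 13.1 and 15.3 and 16.1 and 17.3, and Pdhx, which binds Dld into the complex, was higher by 0.70 ± 0.23, adjusted p = 0.0170. Mlycd, which breaks down the malonyl-CoA that inhibits Cpt1a, was at 92.1 and 95.6 in germ cells against 15.3 and 15.4 in granulosa cells (2.86 ± 0.21, adjusted p = 1.91e-08). The filter on low counts asked for 23.1 CPM in 2 sums. The germ sums of Mlycd and Pdk1 reached it, and the granulosa sums of both did not. Whether these 2 genes would have been tested without the germ sums was not examined. Among 12 tested partners of the cycle in glutamine use and the cytosol, 6 were lower, beside 25.2% of all genes, and 2 were higher, beside 37.5%. They include Idh1, the cytosolic NADP-dependent isocitrate dehydrogenase, at 9.89 and 10.4 in germ cells against 327 and 366 in granulosa cells (-3.53 ± 0.23, adjusted p = 4.13e-09), so that both NADP-dependent enzymes were lower in germ cells. Got1, cytosolic aspartate aminotransferase, was at 4.85 and 5.67 against 68.5 and 45.7 (-2.80 ± 0.32, adjusted p = 2.04e-06).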

How the data were processed

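The authors deposited UMI counts per gene and cell barcode for 2 libraries (4094 and 4847 barcodes; 54471790 and 59074480 UMIs); the submitters' processing notes name Cell Ranger 3.0.2 and GRCm38. Cells with at least 500 genes, at most 10% mitochondrial UMIs and no Scrublet call (102 and 93 removed; scanpy 1.11.5, 1 score threshold for both libraries) were gated by markers and their UMIs summed per library and cell type. The sums were tested with edgeR 4.0.16 (R 4.3.3), glmQLFit and glmQLFTest with Benjamini-Hochberg adjustment over all genes tested. Genes passed filterByExpr at a minimum count of 100, and TMM factors came from genes of at least 50 CPM. DESeq2 1.42.0, other gates, filters and scalings, thinned cells, left-out sums and the library as a block were alternatives. Cell types of 1 library come from the same pups, which pairs the sums: library deviations correlated at r = 0.0144 to 0.280 between cell types.

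The 33 genes and all lists were chosen with earlier results of these data known. The test had been set down with filterByExpr's default minimum count and TMM over all genes. Both were changed after tests on simulated data gave too many false calls. By then background counts, medians and the raw UMI sums of the 33 genes had been seen. The fold changes of the 33 genes had not. As first set down, the test called 18 of the 33 genes higher and 6 lower in germ cells. Over all genes it then called 5388 higher and 2223 lower of 14094, against 3298 and 2216 of 8804 in the test used. The direct germ cell comparisons, the wider mesothelial gate, the left-out single sums, the motifs and the promoters shown were chosen after seeing the data, as was testing 1 fixed gene set in the alternative cell sets and left-out sums. Every gene of the 33 is named; of the other pathway genes, those named are up to 3 per list with the largest log2 differences among those called. Few UMIs limit the precision of the mesothelial and immune sums. Some results are not reported here.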

Additional observations from a re-analysis of the deposited data

How the results depend on the processing

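Of 106 calls of a gene in a comparison of cell types, 104 held with DESeq2, 101 with TMM over all genes, 101 with the default minimum count, 96 with both, 99 with library size alone, 96 with no filter, 100 in Leiden clusters, 97 with a loose gate, 105 with mitochondrial shares up to 20%, 106 with each library's own doublet threshold and 106 with the wider mesothelial gate. Of 104 that the strict gate could test, 98 held; it left too few immune cells. The median log2 difference of all genes in germ cells was 0.14, against 0.24 with library size alone and -0.02 with DESeq2. Thinned to 2000 UMIs per cell, 74 held, 31 lost their call and Cpt1a in germ cells reversed to 0.12. The cause of these shifts was not tested, except that thinning leaves fewer UMIs.

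Higher and lower counts that moved are given by setting. With DESeq2 they were 0 higher in immune cells, 11 higher and 5 lower in granulosa against interstitial cells and 2 lower in Zp3-high cells. Over all genes DESeq2 took granulosa against interstitial cells from 2033 to 2247 higher and from 1744 to 2090 lower. With no filter they were 0 higher in immune cells and 2 lower in Zp3-high cells. Immune cells had 0 higher with library size alone, with TMM over all genes, with the default minimum count and with the last 2 together, which also left 2 lower in interstitial cells. In Leiden clusters 11 were lower in interstitial, 10 higher and 4 lower in mesothelial and 3 higher and 0 lower in immune cells. Over all 8804 genes the clusters also took the lower calls in interstitial cells from 855 to 2034 and the higher calls in mesothelial cells from 754 to 1885. The loose gate gave 6 higher and 2 lower in mesothelial cells. Calls over all genes there went from 754 to 1281 higher and from 124 to 578 lower. The strict gate gave 5 lower in granulosa and 5 higher and 12 lower in interstitial cells. It also gave 7 higher and 2 lower in mesothelial and 2 higher and 9 lower in endothelial cells. Over all genes its lower calls went from 780 to 1377 in granulosa and from 855 to 1892 in interstitial cells. In endothelial cells they went from 609 to 1353. The higher calls went from 2108 to 2271 in interstitial, 754 to 1105 in mesothelial and 1379 to 1780 in endothelial cells. The wider mesothelial gate gave 11 higher and 3 lower there and 12 higher in granulosa against interstitial cells. Thinning gave 3 lower in germ, 4 higher and 1 lower in granulosa and 2 lower in interstitial cells. It gave 1 higher in mesothelial, 2 lower in endothelial, 0 higher and 0 lower in immune and 7 lower in germ against granulosa cells. Over all genes, lower calls then went from 2216 to 944 in germ, 780 to 169 in granulosa and 855 to 259 in interstitial cells. Higher calls went from 2267 to 1558 in granulosa, 754 to 366 in mesothelial and 823 to 349 in immune cells. Requiring in addition a difference over 2-fold left 6 higher in germ, 1 higher in granulosa and 0 lower in interstitial cells. It left 1 lower in endothelial, 0 higher in immune and 0 higher in granulosa against interstitial cells. Germ cells kept 4 higher and 7 lower against granulosa and 6 higher against interstitial cells. Over all genes this rule left 2422 of 3298 higher in germ and 1523 of 2267 in granulosa cells. Of lower calls it left 367 of 855 in interstitial and 407 of 609 in endothelial cells. Against granulosa cells, germ cells kept 2206 of 3196 higher and 2810 of 3606 lower over all genes.

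With the library as a block, which pairs the sums, 105 of the 106 calls held and the Zp3 comparison went from 0 and 0 to 6 higher and 6 lower, while over all 8204 genes it went from 360 and 85 to 1671 and 1138. With 1 sum left out, the ranges were 1 lower in interstitial cells (either sum), 0 to 4 lower in endothelial cells, 0 higher and 0 to 1 lower in immune cells, 2 to 11 higher in granulosa against interstitial cells, 7 to 11 lower in germ against granulosa cells and 0 to 1 higher and 0 to 2 lower in Zp3-high cells. With 1 whole library left there is no test, and every called gene kept its direction, while 34 of the 106 values moved by at least 1 standard error without replicate 1 and 30 without replicate 2.

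The TCA sum in germ cells was 2184 with the loose gate, 2179.6 in Leiden clusters and 2277 after thinning. In mesothelial cells it was 1749.6 with the strict, 1657 with the loose and 1486 with the wider gate, 1608 with mitochondrial shares up to 20%, 1513 in Leiden clusters and 1434 after thinning. In immune cells it was 1328, 1277 and 1367 with the loose gate, in Leiden clusters and after thinning. The oxidation sum after thinning was 1729.9 in germ, 1896 in granulosa, 1001 in endothelial and 1300.0 in immune cells, and 1779 in mesothelial cells with the wider gate. Depth limits the mesothelial and immune sums most: the SD of a gene was at the median 22.5% and 27.0% of its mean there, against 5.37% in germ cells.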

Other observations

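Genes of the same pathways outside the 33, from lists chosen with earlier results known, separated the somatic types as well. Fabp3, a fatty acid binding protein, stood at 118 and 139 counts per 1000000 UMIs (CPM) in granulosa and 133 and 107 in mesothelial cells, against 1.23 and 2.59 in germ and 5.48 and 5.29 in interstitial cells. It was at 0 in the immune sums, so no fold is given. Interstitial cells carried the most Oxct1, which uses ketone bodies, at 112 and 107 against 31.3 and 34.9 in granulosa and 35.9 and 32.2 in germ cells (interstitial cells against the mean of the other types, 1.20 ± 0.15, adjusted p = 1.10e-05, edgeR). Me1, the cytosolic malic enzyme, stood at 85.6 and 91.2 in interstitial cells and 2.12 and 3.23 in endothelial cells (2.20 ± 0.17, adjusted p = 9.22e-08 in interstitial cells).

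In germ cells, Nrf1, a transcription factor of mitochondrial genes, stood at 93.0 and 105 CPM against 21.3 and 20.7 in granulosa cells (1.72 ± 0.15, adjusted p = 1.40e-07), and Tfam, which packages mitochondrial DNA, was higher as well (1.18 ± 0.17, adjusted p = 1.58e-05). Hsd17b10, a 3-hydroxyacyl-CoA dehydrogenase of the matrix, stood at 434 and 419.8 against 239 and 256 in granulosa cells (1.24 ± 0.13, adjusted p = 7.52e-07), whereas Decr1, the dienoyl-CoA reductase needed for polyunsaturated chains, was lower, at 8.29 and 9.16 against 58.5 and 56.4 (-2.43 ± 0.29, adjusted p = 3.63e-06). Among 51 of these genes tested between Zp3-high and Zp3-low germ cells, 3 were higher in Zp3-high cells by edgeR, beside 4.39% of all genes, and 17 had an unadjusted p under 0.05. The share of higher calls was thus near that of all genes. The 3 were Fabp5, a fatty acid binding protein (1.87 ± 0.27, adjusted p = 0.0232), Bdh1, the ketone body dehydrogenase (1.51 ± 0.22, adjusted p = 0.0232), and Slc25a1, the mitochondrial citrate carrier (1.06 ± 0.14, adjusted p = 0.0205).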
